A study of Mus musculus with 45 samples.

Results

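Mammary tumors of MMTV-Her2/neu mice (n = 5) were compared with those of MMTV-PyMT mice (n = 9) for gains and losses of DNA across the autosomes. The tumors were chosen by the mouse model named for the tumor channel of each array, which gave 14 of the 45 tumors of the series. Genomic DNA of each tumor was hybridized with a reference on a 2-colour Agilent 44K array for comparative genomic hybridization, in which the ratio of both colours at a probe follows the relative copy number of that stretch of DNA. The labels give the source of every tumor as female mice and the reference as pooled spleen, although other fields of the reference channel read normal mammary. Both models carry a transgene behind the long terminal repeat promoter of the mouse mammary tumor virus (MMTV), which is active in mammary epithelium, and neither strain nor age nor the form of the transgene is given in the labels. The comparison asks how much and which part of the genome was altered in tumors begun by either oncogene.

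Her2/neu, encoded in mice by Erbb2, is a receptor tyrosine kinase of the ErbB family that signals mainly through the Ras and phosphatidylinositol 3-kinase (PI3K) pathways. The polyomavirus middle T antigen (PyMT) has no enzyme activity of its own. It acts as a membrane scaffold that binds Src family kinases, Shc1, the PI3K regulatory subunit, phospholipase C gamma and protein phosphatase 2A, so that it engages many of the same routes. A gain or loss of a whole chromosome arises when chromosomes are missegregated in division, whereas a short, high-level gain is called an amplicon.

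The sign of every ratio below takes Cy3 over Cy5 as tumor over reference, which opposes the labels, where Cy5 is the tumor. All 110 autosomal intervals that passed the filter of the deposited interval table (at least 3 probes, mean at least 0.2 in size) in these 14 tumors ran against Cy5 over Cy3 in the same arrays. With the dyes as labelled every gain given here becomes a loss and every loss a gain. Each array was set to a median of 0 over its autosomal probes. A segment of 5 probes or more was called a gain or a loss once its mean log2 ratio passed 0.2 or -0.2, and each of 2057 autosomal bins of 1 Mb took the state of most of its probes. Positions are those of the mm8 build. A change carried by fewer cells and a smaller change in each cell cannot be told apart in bulk DNA.

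Several arrays stand apart and touch what follows. The bin profile of H2N53 had a Pearson's r of 0.96 with that of C3TAg_5RPT, an array labelled C3(1)-Tag, and H2N61 had an r of 0.93 with C3TAg_7RPT of the same model. No other pair among the 45 arrays exceeded 0.9. With chromosome 6 left out, r was still 0.96 for H2N53 and C3TAg_5RPT but 0.80 for H2N61 and C3TAg_7RPT. Whether a tumor was mislabelled or hybridized more than once was not tested, and H2N53 and H2N61 stand under MMTV-Her2/neu here by their labels alone. The measures per tumor and the calls on autosomes, bins and genes are therefore also given without them. H2N1 and H2N53 were alike as well (r = 0.85), as were H2N61 and H2NA (r = 0.80), and of the 3 tumors that remain without H2N53 and H2N61, H2N1 had an r of 0.82 with C3TAg_5RPT and H2NA an r of 0.75 with C3TAg_7RPT. Of the 14 arrays, PyMT_11567 and PyMT_11570 had the highest probe noise (SD of 0.472 and 0.445 on the log2 scale, from differences between neighbouring probes) against 0.170 to 0.336 in the MMTV-Her2/neu tumors, and resembled each other (r = 0.71) and Wnt_4679, an array labelled MMTV-Wnt1 (r = 0.51 for PyMT_11567 and 0.69 for PyMT_11570). In H2N64 the noise was 0.336, against at most 0.209 in the other MMTV-Her2/neu arrays. The part that noise played in the differences between models was not tested. The median signal was at least 2.09 times background in Cy5 and 4.82 times in Cy3 on all 14 arrays, and the number of arrays limits the precision. The Cy5 signal was lowest in PyMt 3 and PyMt 4 1 (2.17 and 2.09 times background). These and PyMT_11567 and PyMT_11570, but none of the MMTV-Her2/neu arrays, were extracted with other protocol versions than the remaining 10 arrays.

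MMTV-Her2/neu tumors had the more altered genomes, and what set the models apart was mainly loss of DNA. The altered share of autosomal bins was 54.4% in H2N53, 48.0% in H2NA, 45.7% in H2N1, 17.5% in H2N61 and 1.41% in H2N64. In MMTV-PyMT tumors it ran from 0.0486% (PyMT_11567) through a median of 5.44% to 18.7% (PyMt 3). H2N53, H2NA and H2N1 lay above every MMTV-PyMT tumor, and H2N61 and H2N64 lay within their range. The means were 33.4% ± 22.8 (SD, n = 5) and 7.01% ± 6.57 (SD, n = 9), 26.4 points apart (exact permutation test, two-sided, over 2002 assignments of the tumors, p = 0.0090, Benjamini-Hochberg adjusted over 6 measures 0.019). Without H2N53 and H2N61 the difference was 24.7 points (exact permutation p = 0.032). Nothing in the labels says that the tumors came from separate mice, so p-values measure only the spread between these samples.

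The lost share carried this difference. It was 31.9% in H2N53, 30.5% in H2NA, 24.3% in H2N1, 10.2% in H2N61 and 0.535% in H2N64. Among MMTV-PyMT tumors the lowest was 0%, the median 0.0486% and the highest 1.65% (PyMT_11570), so that all MMTV-Her2/neu tumors other than H2N64 had lost more than any MMTV-PyMT tumor. The mean difference was 19.2 percentage points (exact permutation p = 0.0015, adjusted 0.0090), and 18.1 points without H2N53 and H2N61 (exact permutation p = 0.014).

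The gained share differed less. MMTV-Her2/neu tumors had 13.9% ± 9.42 (SD, n = 5) of bins gained and MMTV-PyMT tumors 6.69% ± 6.48 (SD, n = 9), 7.23 points apart, which did not pass the test (exact permutation p = 0.11), nor did the 6.57 points without H2N53 and H2N61 (exact permutation p = 0.22). The 2 groups overlapped widely, since PyMt 3 (17.8%) exceeded H2NA (17.5%), H2N61 (7.34%) and H2N64 (0.875%). Without H2N64 the difference was 10.5 points and passed unadjusted (exact permutation p = 0.029). A p above the threshold does not show that gains were equal.

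**Figure D1:**
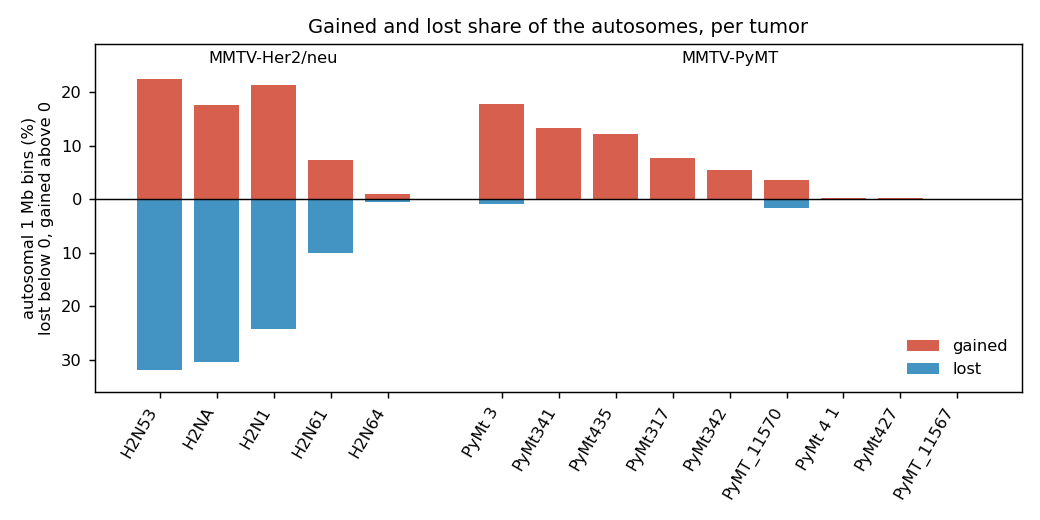
Percent of autosomal 1 Mb bins gained (red, above 0) and lost (blue, below 0) in each of the 5 MMTV-Her2/neu and 9 MMTV-PyMT tumors, ordered by altered share within a model. Loss reaches 31.9% in MMTV-Her2/neu tumors and at most 1.65% in MMTV-PyMT tumors, while gains overlap.

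Most of these changes took in whole chromosomes. A chromosome was counted as changed where at least 10% of its probes were gained or lost, and as changed whole from 90%. H2NA had 12 changed autosomes of 19, H2N53 had 10, H2N1 had 9, H2N61 had 5 and H2N64 had 1. The MMTV-PyMT tumors had from 0 to 5, with a median of 1, and 3 of them had none (PyMt 4 1, PyMt427 and PyMT_11567). The mean was 7.40 ± 4.39 (SD, n = 5) against 1.89 ± 2.03 (SD, n = 9), a difference of 5.51 (exact permutation p = 0.0095, adjusted 0.019). With arrays centred on the density peak of their ratios the difference was 3.73 and did not pass (exact permutation p = 0.082). It was 5.44 without H2N53 and H2N61 (exact permutation p = 0.036).

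Whole-chromosome gains and losses were unevenly spread over the models. MMTV-Her2/neu tumors held 11 whole gains and 16 whole losses in all, with whole losses in 4 of 5 tumors, whereas the 9 MMTV-PyMT tumors held 11 whole gains and no whole loss. Whole changes numbered 8 in H2N1, 8 in H2N53, 2 in H2N61, 0 in H2N64 and 9 in H2NA, against 0 to 4 in MMTV-PyMT (mean difference 4.18, exact permutation p = 0.018, adjusted 0.027). That call was lost without PyMT_11567 and PyMT_11570 (difference 3.83, exact permutation p = 0.052). It was also lost on the 4 slides shared by the models, although the difference was larger there. Without H2N53 and H2N61 the difference was 4.44 (exact permutation p = 0.045). The mean log2 ratio of a whole loss in MMTV-Her2/neu tumors ranged from -0.47 to -0.23 with a median of -0.40, and that of a whole gain from 0.26 to 0.41 with a median of 0.34. Whole gains in MMTV-PyMT tumors ran from 0.27 to 0.73 with a median of 0.42.

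Partial changes were few in either model. MMTV-Her2/neu tumors had 1 to 3 each, and MMTV-PyMT tumors had 0 except PyMt 3 with 1 and PyMT_11570 with 5. The mean difference of 1.33 did not pass the test (exact permutation p = 0.16), but it became 1.86 (exact permutation p = 0.0038) without PyMT_11567 and PyMT_11570. It was 1.00 without H2N53 and H2N61 (exact permutation p = 0.42).

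On 4 slides an array of each model was hybridized side by side, which holds slide and scan constant. Place on the slide is not held constant. By the array names each model had its own place, the same on all 4 slides. Model and place cannot be told apart there. The MMTV-Her2/neu tumor had the higher altered share on 4 of 4 slides, by 40.4 percentage points for H2NA over PyMt317, 32.5 for H2N1 over PyMt341, 48.9 for H2N53 over PyMt342 and 17.2 for H2N61 over PyMt427. The lost share was likewise higher by 30.5, 24.3, 31.9 and 10.1 points. The mean difference in altered share over the 4 slides was 34.7 points. Exchanging the models within slides allows 16 arrangements, so this exact permutation test gave p = 0.125, the smallest it can give, and cannot pass. Exchanging them freely over the 8 arrays, without regard to slide, gave p = 0.029 (exact permutation, the smallest that 4 against 4 tumors allow). None of the 4 arrays with another protocol version is among these 8. H2N64, the tumor with almost no change, lay on a slide with no MMTV-PyMT array.

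The chromosomes lost in MMTV-Her2/neu tumors were chiefly 10 and 7, and chromosome 5 was the one most often gained whole. Chromosome 10 was lost over all probes in H2N1 and H2N53, 99.4% in H2N61 and 99.7% in H2NA. In H2N64 the lost part was 11.5%. Its mean log2 ratio was -0.37 in H2N1, -0.43 in H2N53, -0.34 in H2N61, 0.03 in H2N64 and -0.47 in H2NA, against a lowest value of -0.07, a median of 0.01 and a highest of 0.33 (PyMt435, where the chromosome was gained) in MMTV-PyMT tumors. H2N64 was the only MMTV-Her2/neu tumor inside the MMTV-PyMT range. The difference was -0.34 (exact permutation, adjusted p = 0.021 over 19 autosomes). Chromosome 10 carries Erbb3, the partner receptor of Erbb2.

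Chromosome 7 was lost in the same 4 tumors. Its mean log2 ratio was -0.41 in H2N1, H2N53 and H2NA, -0.23 in H2N61, where 75.7% of probes were lost, and -0.05 in H2N64. The MMTV-PyMT tumors ranged from -0.12 to 0.12 with a median near 0, and none reached 10% of lost probes. The difference was -0.29 (exact permutation, adjusted p = 0.014).

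Chromosome 5 was gained over 98.8% of its probes in H2N1, 93.4% in H2N53 and 98.3% in H2NA, and over 0.499% in H2N61 and 0% in H2N64. Its mean log2 ratio was 0.30, 0.26 and 0.41 in the first 3 of these, 0.04 in H2N61 and near 0 in H2N64, while MMTV-PyMT tumors lay between -0.09 and 0.03. The difference was 0.22 (exact permutation, adjusted p = 0.019). Chromosome 3 also passed, with a smaller difference of 0.10 (exact permutation, adjusted p = 0.0095). Its mean in all 5 MMTV-Her2/neu tumors (0.05 to 0.19) lay above all MMTV-PyMT tumors (-0.02 to 0.04), although called gains covered only 25.1% of its probes in H2N61 and 16.4% in H2NA.

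In all, 2 autosomes were higher in MMTV-Her2/neu tumors (10.5% of the 19 tested) and 2 were lower (10.5%), and the groups did not overlap on 2 (chromosomes 3 and 11, 10.5%). Without H2N53 and H2N61 no autosome passed, with differences of -0.30 on chromosome 10, -0.28 on 7, 0.26 on 5 and 0.07 on 3. The adjusted p of the exact permutation test was then between 0.086 and 0.16. Leaving out H2N1 or H2N53 alone ended the calls of chromosomes 5 (exact permutation, adjusted p = 0.053) and 10 (0.060). With density-peak centring 7 (-0.35) and 10 (-0.41) passed (exact permutation, adjusted p = 0.028 and 0.033), while 5 (0.16) and 3 (0.03) did not (exact permutation, adjusted p = 0.10 and 0.55). Over the 4 slides shared by the models none passed, with differences of -0.42 on 10, -0.40 on 7, 0.25 on 5 and 0.10 on 3 (exact permutation, adjusted p = 0.060 for each).

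**Figure D2:**
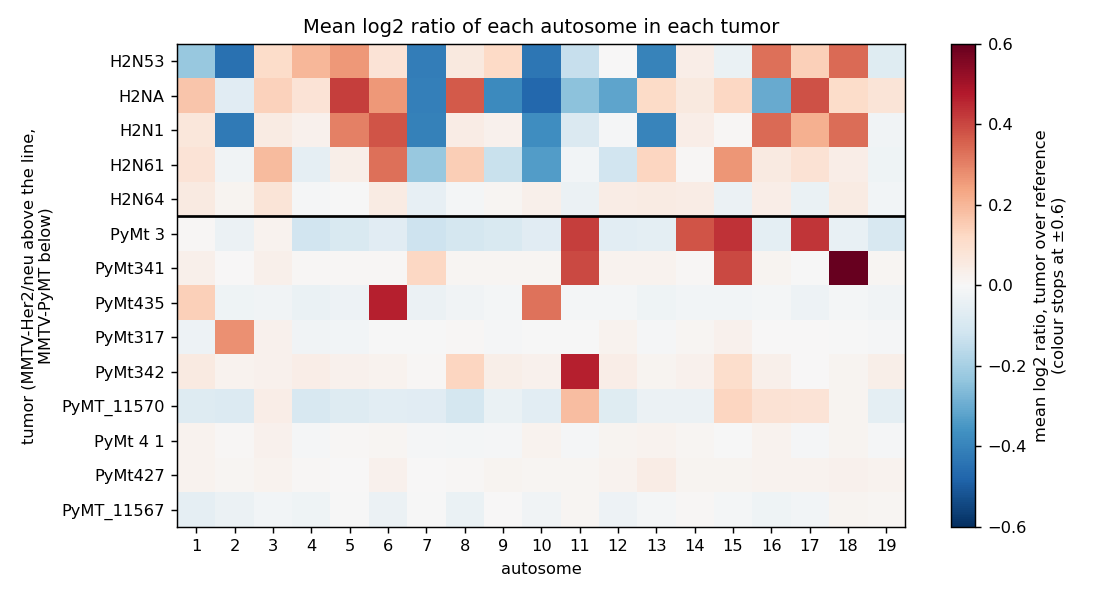
Mean log2 ratio (tumor over reference, colour) of each of 19 autosomes in 5 MMTV-Her2/neu tumors, above the line, and 9 MMTV-PyMT tumors, below it. Chromosomes 7 and 10 are blue in H2N53, H2NA, H2N1 and H2N61, and chromosome 11 is red in PyMt 3, PyMt341 and PyMt342.

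Chromosome 11, which carries the endogenous Erbb2 gene, was the one most often changed in MMTV-PyMT tumors. It was gained in 4 of 9 of them, whole in PyMt 3, PyMt341 and PyMt342 and over 10.71% of its probes in PyMT_11570. No MMTV-Her2/neu tumor gained it, and H2NA lost it whole. The mean log2 ratio was -0.09 in H2N1, -0.14 in H2N53, -0.02 in H2N61, -0.03 in H2N64 and -0.24 in H2NA, against -0.01 to 0.46 with a median of 0.01 in MMTV-PyMT. The groups did not overlap, but the lowest MMTV-PyMT tumors and the highest MMTV-Her2/neu tumors were close, and the difference of -0.27 missed the threshold (exact permutation, adjusted p = 0.065). It passed without H2N61, H2N64 or PyMt435 (exact permutation, adjusted p = 0.049, 0.038 and 0.047).

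Chromosome 15 was gained in 3 MMTV-PyMT tumors, whole in PyMt 3 and PyMt341 and over 39.0% in PyMT_11570. It was gained whole in H2N61 as well. Its difference was -0.06 (exact permutation, adjusted p = 0.62). The remaining whole gains in MMTV-PyMT tumors were of chromosome 2 (PyMt317), 6 and 10 (PyMt435), 14 and 17 (PyMt 3) and 18 (PyMt341). H2N1 and H2N53 shared whole losses of 2, 7, 10 and 13 and whole gains of 5, 16 and 18, and both gained a part of 17 (34.8% and 42.4% of its probes).

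Counted by tumors rather than by level, loss of chromosome 10 stood at 5 of 5 against 1 of 9, loss of 7 at 4 of 5 against 0 of 9 and gain of 5 at 3 of 5 against 0 of 9. Over the 24 combinations of chromosome and direction seen in any tumor, 0 passed a two-sided Fisher's exact test after adjustment (0%). Unadjusted, Fisher's exact test gave p = 0.0030, 0.0050 and 0.027 for these 3, and the adjusted p of the first 2 was 0.060. Without PyMT_11567 and PyMT_11570, the latter of which has the 1 partial loss of chromosome 10 in MMTV-PyMT, 1 passed (Fisher's exact test, adjusted p = 0.029). None passed without H2N53 and H2N61, and the smallest adjusted p of Fisher's exact test was 0.33.

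**Figure D3:**
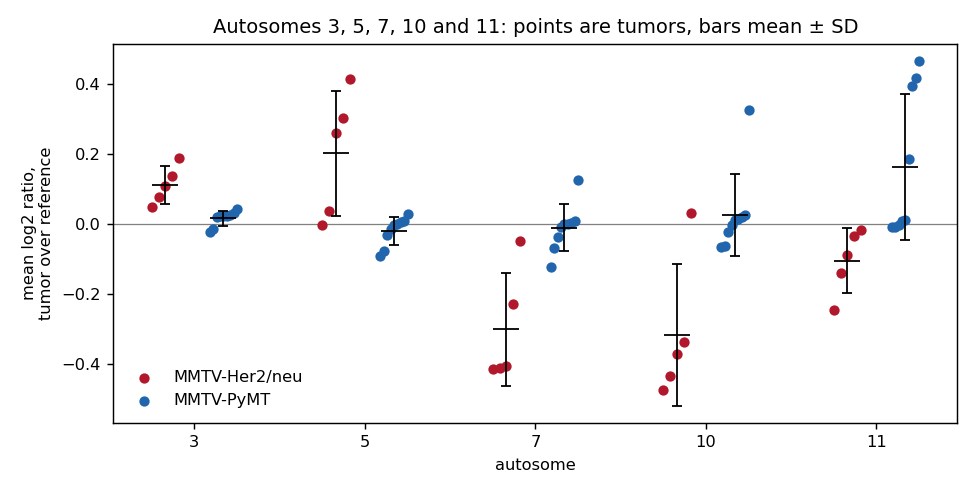
Mean log2 ratio (tumor over reference) of autosomes 3, 5, 7, 10 and 11. Each point is a tumor and the bars give mean ± SD (n = 5 MMTV-Her2/neu, red, and n = 9 MMTV-PyMT, blue). The means of 7 and 10 are low in all MMTV-Her2/neu tumors other than H2N64 (-0.05 and 0.03), and gain of 11 falls in a minority of MMTV-PyMT tumors.

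Tested bin by bin with limma across all 2057 bins, 101 (4.91%) were higher and 219 (10.6%) lower in MMTV-Her2/neu tumors at an adjusted p under 0.05. Of the lower bins, 92 of the 112 bins of chromosome 10 and 88 of the 122 of chromosome 7 were called, along with 23 on chromosome 11 and 16 on chromosome 2. Of the higher bins, 73 lay on chromosome 5, 11 on chromosome 6, 9 on chromosome 8, 6 on chromosome 3 and 1 each on 4 and 17. Bins of the same chromosome move together and are not independent. The calls rest on few tumors: leaving out H2N1, H2N53 or H2NA left 0 bins in either direction (537, 539 and 601 at an unadjusted p under 0.05 by limma), and leaving out both H2N53 and H2N61 left 7 higher and 0 lower (468 unadjusted). Without H2N64, 174 were higher and 363 lower. Leaving out 1 MMTV-PyMT tumor at a time left 34 to 67 higher and 142 to 187 lower, and leaving out both PyMT_11567 and PyMT_11570 left 39 and 117. Normexp background correction gave 52 and 134, all 45 arrays in the fit 57 and 154, and slide as a fixed block 127 and 390. With arrays centred on the density peak in place of the median, 18 were higher and 282 lower, so that 6.0% of the called bins were higher against 31.6%. On the 4 slides shared by the models the counts were 98 and 224.

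The bin with the largest difference was named on each such chromosome other than 6 by its most different probe. On chromosome 5 it held Cacna2d1, a subunit of voltage-gated calcium channels (15000001 to 16000000; difference 0.40, SE 0.08, limma adjusted p = 0.016), where H2N61 was at -0.06 and the other MMTV-Her2/neu tumors lay at 0.24 to 0.33. The group means of this bin of 8 probes were 0.22 and -0.18. MMTV-PyMT tumors lay at -0.42 to -0.02, although their means over chromosome 5 were -0.09 to 0.03. H2N64 read 0.33 here, although 0% of its chromosome 5 probes were gained. On chromosome 10 it held the transcript AK142529 (29000001 to 30000000; -0.47, SE 0.12, adjusted p = 0.025), and on chromosome 11 Arhgap44, a GTPase activating protein (64000001 to 65000000; -0.39, SE 0.10, adjusted p = 0.025). The bins at Ralyl on chromosome 3 (0.33, adjusted p = 0.038), AK039749 on 4 (0.21, adjusted p = 0.043) and Ptprt, a receptor tyrosine phosphatase, on 2 (-0.33, adjusted p = 0.049) also passed in limma. That at Ralyl has 5 probes and read 0.62 in H2N64 and -0.02 to 0.12 in the other MMTV-Her2/neu tumors. Its MMTV-PyMT mean was -0.16, although chromosome 3 averaged 0.02 in that model. The bins with the largest difference on chromosomes 7 (Spef1l, -0.60, where PyMt341 was at 2.65), 8 (AK136779, 0.38) and 17 (Adgre1, a macrophage surface receptor gene, 0.26) did not pass. Of the 6 bins named here that did, only that at Cacna2d1 passed without H2N53 and H2N61 (limma, 0.48, adjusted p = 0.019), and those at Cacna2d1 and Ptprt without PyMT_11567 and PyMT_11570. Leaving out H2N1, H2N53 or H2NA ended the call of each of the 6 in limma. With each of the 14 tumors left out in turn, the bins at Ptprt and AK039749 kept their call in only 3 of 14 settings and that at Ralyl in 6, whereas those at Cacna2d1, AK142529 and Arhgap44 kept it in 11. Most of the omissions that ended the calls at Ptprt and AK039749 were of MMTV-PyMT tumors. The bin at Spef1l passed without PyMt341 (-0.30, adjusted p = 0.025), and those at AK136779 (0.52, adjusted p = 0.0049) and Adgre1 (0.31, adjusted p = 0.018) without H2N64.

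A short gain of high level was seen on chromosome 7 in 1 MMTV-PyMT tumor. PyMt341 carried segments of at least 1 on chromosome 7 from 139088198 to 142194883 (3.11 Mb, 170 probes, 93 named genes), with a top segment mean of 2.77, a span that holds Hras. The other 13 tumors lay between -0.45 and 0.02 over it. PyMt 3 had a narrow loss on chromosome 4 (132722438 to 133287235, 26 probes, mean -1.04) around Nr0b2, which encodes an orphan nuclear receptor. Segments of at most 10 Mb and at least 1 in size numbered 129 in MMTV-Her2/neu tumors (29 gains, 100 losses) and 63 in MMTV-PyMT tumors (24 gains, 39 losses). In only 38 and 12 of them did the median probe also reach 1, a criterion added after the values were seen. Of the 38, 27 are gains in H2N61 and H2NA, and 10 are short losses in H2N53, the array with 667 segments against 65 to 319 in the other 13.

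Gene by gene no difference passed: of 20172 autosomal genes, 0 were higher and 0 lower at a limma adjusted p under 0.05 (0% in either direction). At an unadjusted p under 0.05 by limma, 3949 differed (19.6%), 1125 of them higher (5.58%) and 2824 lower (14%). Without H2N64 the adjusted counts by limma were 194 higher and 848 lower, and over the 4 slides shared by the models 122 and 950. With slide as a fixed block they were 0 and 98, with slide as a random block 250 and 1017, and with density-peak centring 10 and 398. They were 0 and 0 without H2N53 and H2N61 (2627 at an unadjusted p under 0.05 by limma). The counts of the lists below are at that unadjusted level, and are read against those shares. Genes carried by the same segment are not independent.

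Of ErbB receptors and ligands 12 of 15 were measured, and 3 were higher (Areg, Ereg and Btc, ligands carried together on chromosome 5) and 2 lower (Egfr on chromosome 11 and Erbb3 on 10). The median difference of the list was 0.08, against -0.02 over all genes. Erbb2 itself (chromosome 11, 98232924 to 98249099, 2 probes) stood at 0.13 in H2N1, -0.04 in H2N53, 0.09 in H2N61, 0.13 in H2N64 and -0.11 in H2NA. In MMTV-PyMT tumors it ran from -0.12 (PyMt 4 1) through a median of 0.20 to 0.70 (PyMt342), so the tumors of the Her2/neu model lay between the lowest value and the median of the PyMT range. The difference was -0.23 (SE 0.13, limma adjusted p = 0.32), and whether these probes read the transgene is not stated in the sources used here.

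Among the ligands, Areg, which encodes amphiregulin, had the largest difference (chromosome 5, 92223341 to 92223400, 1 probe; 0.38, SE 0.13, limma adjusted p = 0.15). It stood at 0.13 in H2N1, 0.23 in H2N53, -0.24 in H2N61, 0.41 in H2N64 and 0.35 in H2NA, against -0.65 to 0.12 in MMTV-PyMT. Epgn, the gene of another ErbB ligand nearby, differed by 0.35 (adjusted p = 0.43 in limma) and by 0.20 without H2NA, and its probe spread from 0.00 to 0.98 in MMTV-Her2/neu and from -0.67 to 0.81 in MMTV-PyMT. In MMTV-PyMT 4 tumors lay below all MMTV-Her2/neu tumors, H2NA lay above all MMTV-PyMT tumors, and the rest overlapped.

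Of the binding partners of middle T, 18 of 20 were measured, with 4 higher (Shc1, Pik3r2, Ppp2cb and Ywhag), 3 lower (Src, Fyn and Ywhae) and a median difference of 0.00. Shc1, an adaptor between receptors and Ras (chromosome 3, 89513978 to 89514035, 1 probe), was -0.17 in H2N1, 0.05 in H2N53, -0.13 in H2N61, 0.27 in H2N64 and -0.01 in H2NA. The MMTV-PyMT values ran from -1.26 in PyMT_11567 through a median of -0.39 to 0.03 in PyMt317. The median over the probes of its bin differed by only 0.11 between the models, against 0.49 (limma adjusted p = 0.16) at the probe. Ppp2ca, the catalytic subunit of protein phosphatase 2A on chromosome 11, lay in a called gain in 4 MMTV-PyMT tumors and differed by -0.44 (limma adjusted p = 0.34), with its highest value, 1.44, in PyMt317. Its value rests on 2 probes. The median over the probes of its bin differed by -0.27 and was at most 0.49 in MMTV-PyMT. In PyMt317 only 0.168% of the probes of chromosome 11 lay in called gains.

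Of Ras and PI3K signalling genes 33 of 34 were measured, and 2 were higher, among them Ptpn11, and 5 lower (Grb2, Map2k2, Dusp6, Rptor and Rps6kb1). The median difference was 0.01. Hras (chromosome 7, 141042967 to 141043018, 1 probe) was 2.76 in PyMt341 and between -0.60 and 0.10 in the other MMTV-PyMT tumors, and between -0.56 and -0.12 in MMTV-Her2/neu tumors (difference -0.55, limma adjusted p = 0.46, and -0.23 without PyMt341). Chosen for mention after the values were seen, Map2k2, a MAP kinase kinase gene on chromosome 10, lay in a called loss in all 5 MMTV-Her2/neu tumors and in 2 MMTV-PyMT tumors (-0.51 ± 0.06, SD, n = 5, against -0.16 ± 0.20, SD, n = 9). Map2k2 and the tumor suppressor gene Cdkn2a on chromosome 4 (0.21 ± 0.08, SD, n = 5, against -0.19 ± 0.24, SD, n = 9) were the only genes of the lists without overlap between the groups, against 302 of all genes (1.5%).

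Of cell cycle genes and tumor suppressors 23 of 26 were measured, with 2 higher (Cdk6 and Cdkn2a), 4 lower (Ccnd1, E2f1, Trp53 and Myc) and a median difference of -0.03. Myc, a transcription factor gene on chromosome 15, gave the widest difference of the list, -1.31 (SE 0.49, limma adjusted p = 0.17). Its single probe (61816154 to 61816213) read 3.34 in PyMt435, 2.59 in PyMt427, 2.56 in PyMt342, 1.78 in PyMt341, 0.79 in PyMt 3, 0.66 in PyMt 4 1, 0.65 in PyMt317, -0.06 in PyMT_11567 and -0.18 in PyMT_11570. The MMTV-Her2/neu tumors lay from -0.13 to 0.26, so that 7 of 9 MMTV-PyMT tumors were above all of them. The nearest probes, 32.6 kb before and 148 kb after, were lower than the Myc probe in the 4 tumors where it read over 1.7. There they read 0.27 and 0.25 in PyMt435, 0.35 and 0.46 in PyMt427, 0.72 and 0.94 in PyMt342 and 0.79 and 1.13 in PyMt341. They were higher than the Myc probe in PyMT_11567 (0.44 and 0.10) and PyMT_11570 (0.42 and 0.05), and the probe before was higher in every MMTV-Her2/neu tumor except H2N64, as in H2N61 at 0.76.

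Ccnd1, the gene of cyclin D1 on chromosome 7, likewise rests on 1 probe (144741829 to 144741888). It read -2.17 in H2N1, -2.12 in H2N53, -0.52 in H2N61, 0.51 in H2N64 and -2.77 in H2NA, against -0.57 to 0.08 in MMTV-PyMT (difference -1.25, SE 0.39, limma adjusted p = 0.12). Without H2N64 the difference was -1.73 and passed (limma adjusted p = 0.020). H2N64 was the highest of all 14 tumors. The nearest probe before it, 11.3 kb away, read 0.21 in H2N1, 0.10 in H2N53 and 0.33 in H2NA. The nearest after it, 82.5 kb away, read -0.41, -0.38 and -0.46. The median over the probes of its bin averaged -0.33 ± 0.12 (SD, n = 5) in MMTV-Her2/neu.

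Of luminal and hormone response genes all 16 were measured, with 1 higher (Areg, also counted above), 2 lower (Esr1, the estrogen receptor gene on chromosome 10, and Stat5b on 11) and a median difference of -0.16. Stat5b, a transcription factor in prolactin signalling, differed by -0.30 (SE 0.11, limma adjusted p = 0.16). It stood at 0.03 in H2N1, 0.00 in H2N53, 0.05 in H2N61, -0.19 in H2N64 and -0.26 in H2NA, against -0.03 to 0.60 in MMTV-PyMT.

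**Figure D4:**
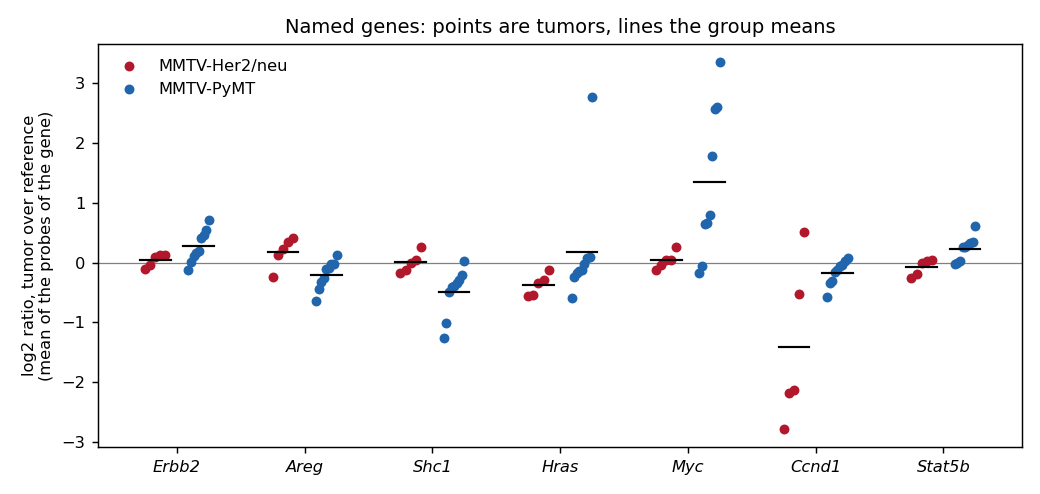
Log2 ratio (tumor over reference, mean of the probes of a gene) of 7 named genes. Each point is a tumor, with MMTV-Her2/neu (n = 5) in red and MMTV-PyMT (n = 9) in blue, and lines are group means. Hras stands at 2.76 in PyMt341, and Myc is spread between -0.18 and 3.34 in MMTV-PyMT tumors.

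Whole profiles had a higher mean correlation within MMTV-Her2/neu than across the models, much of it from H2N53 and H2N61. Over 2057 bins the mean Pearson's r was 0.31 among the 10 pairs of MMTV-Her2/neu tumors (from -0.02 to 0.85), 0.13 among the 36 pairs of MMTV-PyMT tumors (from -0.08 to 0.71) and 0.06 among the 45 pairs across the models (from -0.24 to 0.30). The mean r within MMTV-Her2/neu was 0.15 without H2N53 and H2N61 (3 pairs, from -0.02 to 0.42), that across the models then 0.06, and that within MMTV-PyMT 0.15 without PyMT_11567 and PyMT_11570. These are descriptions, since tumors recur in several pairs and arrays of a slide share their hybridization. H2N64 had a mean r of 0.02 with the other MMTV-Her2/neu tumors and 0.10 with the MMTV-PyMT tumors.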

How the data were processed

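Tumor and reference DNA were hybridized on 2-colour Agilent 44K arrays. Per the file headers, Feature Extraction 9.5.1.1 (10.7 in the submitters' processing notes) subtracted background and dye-normalized both channels, and deposited the result as processed signal intensities and as the log10 ratio of Cy5 over Cy3. The raw mean and background intensities of each spot were deposited too. The authors also deposited interval means on a log2 scale, which served only to set the direction. Columns with the authors' interval p-values and tables of single models were not used. PyMT_11567 and PyMT_11570 had another extraction protocol and dye normalization, and PyMt 3 and PyMt 4 1 another protocol, than the remaining 10 arrays.

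The log10 ratio was turned to log2, its sign reversed and each array centred on 0 at the autosomal median. Control spots and probes without a position on the autosomes or chromosome X were left out, which left 42235 probes. Probes were segmented by circular binary segmentation (split statistic over 6, at least 5 probes, calls at 0.2). The value of a bin was the median over its probes, in autosomal bins of 1 Mb with at least 3 probes (median 16). Genes and autosomes took the mean of their probes. Array measures and autosome means were tested by the exact permutation test over tumors, chromosome counts by Fisher's exact test and bins and genes by limma 3.58.1 (R 4.3.3), each with Benjamini-Hochberg adjustment and a threshold of 0.05. Under the alternatives the 6 measures per tumor were read at their unadjusted p. Segmentation and tests ran in Python 3.11.15 with numpy 2.4.6, scipy 1.17.1 and numba 0.67.0 and were tested on simulated data. Groups came from the model in the labels of the tumor channel.

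Named genes were Erbb2, the 2 genes of each list with the largest difference, the gene of the most different probe in the most different bin of each autosome with a called bin, and the gene of the most extreme probe of each segment of at most 10 Mb and at least 1 in size. The last gave 129 segments in MMTV-Her2/neu and 63 in MMTV-PyMT tumors, of which only a few with a median probe of at least 1 were described. One item that the rule names is not reported here. Members, lists and tests were chosen with earlier results of these data known. Alternatives were the dyes as labelled, density-peak centring, normexp background, other thresholds and bins, slide as a block, other sets of arrays and each tumor left out. Leaving out PyMT_11567 and PyMT_11570, and the likeness of profiles without doubted arrays, were chosen after seeing the data. Depth is not defined for arrays, and their number limits the precision.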

Additional observations from a re-analysis of the deposited data

Results flagged for a closer look

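Of 62 groups of values examined, 9 held a tumor far from the rest of its group by Dixon's test, which chance gives in about 1 in 20 groups. In MMTV-Her2/neu, H2N64 was apart in 4 of them. Its probe noise was 0.336 (SD, log2 scale), its chromosome 10 stood at 0.032 where the other tumors were at -0.34 or lower, the bin at Ralyl was high at 0.62, and the bin at Spef1l was the highest of its group at -0.15. H2N61 was low at -0.058 in the bin at Cacna2d1.

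In MMTV-PyMT, PyMT_11570 had 5 partial chromosome changes against 0 or 1 in the others. PyMt435 stood out on chromosome 10 at 0.33. PyMt341 stood out at Hras with 2.76 and in the bin at Spef1l with 2.65, both within its amplicon on chromosome 7.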

How the results depend on the processing

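No paired analysis was possible because the replicate numbers only name tumors in accession order, other than by slide, which was done for the 4 slides that hold both models. With the dyes as labelled, the gained share differed by 19.2 points (exact permutation p = 0.0015) and the lost share by 7.23 (exact permutation p = 0.11), bins were 219 higher and 101 lower, and signs turned. Autosomes then differed by -0.10 (3), -0.22 (5), 0.29 (7), 0.34 (10) and 0.27 (11). Genes differed by 0.23 (Erbb2), -0.38 (Areg), -0.35 (Epgn), -0.49 (Shc1), 0.44 (Ppp2ca), 0.55 (Hras), 1.31 (Myc), 1.25 (Ccnd1) and 0.30 (Stat5b). Bins differed by 0.33 (Ptprt), -0.33 (Ralyl), -0.21 (AK039749), -0.40 (Cacna2d1), 0.60 (Spef1l), -0.38 (AK136779), 0.47 (AK142529), 0.39 (Arhgap44) and -0.26 (Adgre1). Centring on the density peak gave 3.73 more changed autosomes (exact permutation p = 0.082), -0.13 partial changes (exact permutation p = 1.0), 2 called autosomes, 18 bins higher and 282 lower (6.0% higher of those called, against 31.6%), and 10 genes higher and 398 lower. It moved the median bin difference from 0.00 to -0.06.

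The 4 shared slides gave 5.5 whole changes (exact permutation p = 0.057), 2.25 partial changes (exact permutation p = 0.029), 0 autosomes, and 122 genes higher and 950 lower. Without PyMT_11567 and PyMT_11570 there were 3.83 whole changes (exact permutation p = 0.052), 1.86 partial (exact permutation p = 0.0038), 1 chromosome called by Fisher's exact test, and 39 bins higher and 117 lower. A call threshold of 0.3 gave 0.889 partial changes (exact permutation p = 0.019). Without H2N53 and H2N61 there were 0 autosomes, 7 bins higher and 0 lower. Normexp gave 1 chromosome by Fisher's exact test, 52 bins higher and 134 lower, and 5 genes higher and 25 lower. All 45 arrays in the fit gave 57 bins higher, and 12 genes higher and 83 lower. Bins of 2 Mb gave 74 higher and 135 lower of 1152. Slide as a fixed block gave 390 bins lower, and 0 genes higher and 98 lower, and as a random block 250 genes higher and 1017 lower. The cause was not tested.

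With each tumor left out in turn, differences ran from 21.2 to 34.4 points (altered), 5.09 to 10.5 (gained), 16.1 to 23.9 (lost), 4.36 to 7.11 (changed autosomes), 3.28 to 5.53 (whole) and 1.08 to 1.88 (partial). Counts ran from 2 to 7 autosomes, 0 to 1 by Fisher's exact test, 0 to 174 bins higher, 0 to 363 lower, 0 to 194 genes higher and 0 to 848 lower. The altered share and the lost share had an unadjusted p under 0.05 in every one of these 14 settings (exact permutation, at most 0.025 and 0.0042).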

Other observations

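Chromosome X was not part of any comparison. Its mean log2 ratio was between 0.93 and 1.11 in 12 of the 14 tumors, 0.42 in PyMt341 and -0.03 in PyMt 3. All 5 MMTV-Her2/neu tumors lay between 0.93 and 1.07. The sex of the reference animals is not given in the labels used here.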
